A study of Homo sapiens with 4 samples.

Results

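The genes described here are those of the HLA class I pathway listed by name: the classical class I genes HLA-B and HLA-C, the non-classical class I genes HLA-E, HLA-F and HLA-G, the peptide transporter genes TAP1 and TAP2, and the immunoproteasome genes PSMB8 and PSMB9. All 9 were measured, among 19517 measured protein-coding genes in all. They were chosen by name, and each was read over its annotated gene span on chromosome 6 of hg19. The study used ChIP-seq (sequencing of DNA precipitated with an antibody) to map macroH2A1, a histone H2A variant with a large extra macro domain, in IMR90, an established line of fetal human lung fibroblasts. There were 2 ChIP replicates, described by the submitters as biological, and 2 inputs, with no treatment named in the labels, so there is 1 group of ChIP samples and no test between samples can be made. Each replicate comes as a set of segments that tile the genome, each with the authors' log ratio of ChIP over input, read here as log2 from its values; a value above 0 means more ChIP than input signal on that library's own scale. No RNA was measured, so the cell type could not be checked against marker levels, and read depth is unknown.

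HLA class I molecules carry short peptides from inside the cell to its surface, where CD8 T cells and natural killer cells read them. The proteasome cuts proteins into peptides, and in its immune form PSMB8 and PSMB9 replace the standard catalytic subunits PSMB5 and PSMB6. TAP1 and TAP2 pair to pump the peptides into the endoplasmic reticulum, where class I molecules are loaded. Fibroblasts carry class I molecules. Interferon raises the genes of this pathway together, through upstream elements bound by interferon regulatory factors and NF-kappaB and through the class I transactivator NLRC5. MacroH2A1 is known for broad domains in chromatin with little transcription.

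The sequences before the start sites are shown first, for genes that lie in stretches with different macroH2A1 values. Capitals mark matches to the motifs searched on both strands: the core of the interferon-stimulated response element (GAAANNGAA), the Y box core (ATTGG), the X2 box core (TGACGTCA) and its short form (TGACG), 2 NF-kappaB cores (GGGATTCCC and GGACTTTCC), the TATA box core (TATAAA) and the GC box (GGGCGG). Each line gives the 250 bases before the RefSeq start site, 5′ to 3′ on the gene's strand, placed on hg19 by an exact match. The first 4 are class I genes, HLA-B and HLA-C from chromatin with macroH2A1 above input and HLA-F and HLA-G from chromatin at the level of input.
HLA-B, chr6:31324957-31325206, - strand: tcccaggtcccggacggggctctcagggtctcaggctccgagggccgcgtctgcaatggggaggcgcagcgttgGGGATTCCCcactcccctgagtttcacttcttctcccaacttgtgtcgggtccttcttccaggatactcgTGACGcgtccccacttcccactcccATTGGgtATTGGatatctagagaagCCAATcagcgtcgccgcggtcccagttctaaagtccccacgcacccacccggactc
HLA-C, chr6:31239870-31240119, - strand: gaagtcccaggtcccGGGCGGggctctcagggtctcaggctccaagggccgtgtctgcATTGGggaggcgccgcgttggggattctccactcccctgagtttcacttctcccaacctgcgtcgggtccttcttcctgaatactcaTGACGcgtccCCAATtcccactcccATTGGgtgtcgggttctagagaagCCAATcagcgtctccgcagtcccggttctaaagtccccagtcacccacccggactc
HLA-F, chr6:29690961-29691210, + strand: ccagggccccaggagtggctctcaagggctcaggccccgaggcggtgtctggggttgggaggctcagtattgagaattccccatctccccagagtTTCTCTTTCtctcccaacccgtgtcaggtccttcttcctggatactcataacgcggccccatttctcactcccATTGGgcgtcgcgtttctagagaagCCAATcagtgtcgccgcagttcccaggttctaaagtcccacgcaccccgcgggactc
HLA-G, chr6:29795352-29795601, + strand: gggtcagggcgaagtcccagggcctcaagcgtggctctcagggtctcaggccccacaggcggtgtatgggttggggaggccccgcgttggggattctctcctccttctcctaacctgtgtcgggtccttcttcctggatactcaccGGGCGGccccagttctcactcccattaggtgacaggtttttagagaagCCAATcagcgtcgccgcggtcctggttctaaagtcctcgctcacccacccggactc

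TAP1 and PSMB9 are transcribed away from each other from start sites 488 bases apart, so these stretches lie between the 2 start sites and overlap at their far ends. The annotated span of PSMB9 used for the values below begins farther upstream and encloses both stretches and TAP1.
TAP1, chr6:32821482-32821731, - strand: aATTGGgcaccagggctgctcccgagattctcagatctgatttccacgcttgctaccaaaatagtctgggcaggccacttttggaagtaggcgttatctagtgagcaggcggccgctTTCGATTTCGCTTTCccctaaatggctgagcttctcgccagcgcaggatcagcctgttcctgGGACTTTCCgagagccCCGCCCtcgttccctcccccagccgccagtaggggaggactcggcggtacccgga
PSMB9, chr6:32821719-32821968, + strand: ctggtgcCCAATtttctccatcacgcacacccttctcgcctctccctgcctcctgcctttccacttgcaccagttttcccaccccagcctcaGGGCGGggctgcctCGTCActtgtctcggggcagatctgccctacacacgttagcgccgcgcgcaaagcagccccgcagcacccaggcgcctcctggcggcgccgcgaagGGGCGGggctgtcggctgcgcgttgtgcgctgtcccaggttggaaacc

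The searched window ran from 250 bases before to 50 after the start site, in 8 of the 9 genes, those with an entry in the RefSeq table; HLA-E was not searched. The Y box core lay in 6 of the 8 (HLA-B, HLA-C, HLA-F, HLA-G, TAP1 and PSMB9) and in 34.6% of 34961 promoter windows of the same length. The matches of TAP1 and PSMB9 are the same site, read from both strands where their windows overlap. The response element core lay in HLA-F, TAP1, TAP2 and PSMB8, against 8.11% of all windows, and its 2 matches in TAP1 overlapped each other. Only the spelling given above was searched, and other forms of the element were not. The lack of a match in HLA-B, HLA-C, HLA-G and PSMB9 thus does not show that they lack the element. The cores of NF-kappaB were rarer: GGGATTCCC was in HLA-B alone among the 8 and in 0.383% of all windows, and GGACTTTCC was in TAP1 alone and in 0.372%. The response element and NF-kappaB matches of TAP1 lie between its start site and that of PSMB9, but outside the searched window of PSMB9. The short X2 form lay in HLA-B, HLA-C, TAP2 and PSMB9 (24.5% of all windows), the GC box in 6 of the 8 (45.0%), the TATA core in TAP2 alone (11.5%), and the full X2 core in none (1.85%). These matches are letters in a sequence and not measured binding. The windows of HLA-B and HLA-C were identical at 88.5% of aligned positions, those of HLA-B and HLA-F at 79.2% and those of HLA-F and HLA-G at 73.4%. TAP1 and PSMB9 were at 48.4%.

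HLA-B and HLA-C, highly polymorphic classical class I genes, lay together inside macroH2A1 chromatin. HLA-B (chr6:31321649-31334844) had a mean log2 ratio of 0.57 in replicate 1 and 0.67 in replicate 2, or 0.62 ± 0.07 (SD, n = 2), a ratio of 1.53. HLA-C (chr6:31236526-31239907) had the same values, because each replicate holds both genes in 1 segment. Both replicates put them above 0, and their difference of 0.10 was smaller than the one seen in 76.9% of measured genes. The mean put both genes above 89.6% of measured genes.

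The segment that holds HLA-B and HLA-C was long and had nearly the same borders in both replicates. It ran from chr6:31178877 to 31351811 in replicate 1, or 172.9 kb, and from chr6:31180559 to 31354585 in replicate 2, or 174 kb. Its ends thus differed by 1.68 and 2.77 kb between replicates. Its −log10 p, the authors' measure of significance, was 49.1 and 29.7. The segment was longer than 95.1% of the enriched segments of replicate 1 and 88.0% of those of replicate 2, where enriched means a log2 ratio above 0 with a −log10 p of at least 2. The start site of HLA-C lay 61.0 and 59.3 kb inside the segment's lower end, and that of HLA-B 26.9 and 29.6 kb inside its upper end. Outside it the log2 ratio dropped on the lower side to -0.94 and -0.52, and on the upper side to 0.16 and -0.23. No other measured protein-coding gene had most of its length in this segment in both replicates. The nearest gene beyond HLA-B, 32.7 kb away, is MICA, a stress-induced ligand of the natural killer receptor NKG2D, and it stood at -1.48 and -1.68. POU5F1, a pluripotency factor 88.0 kb from HLA-C on the other side, stood at 0.23 and 0.28.

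**Figure D1:**
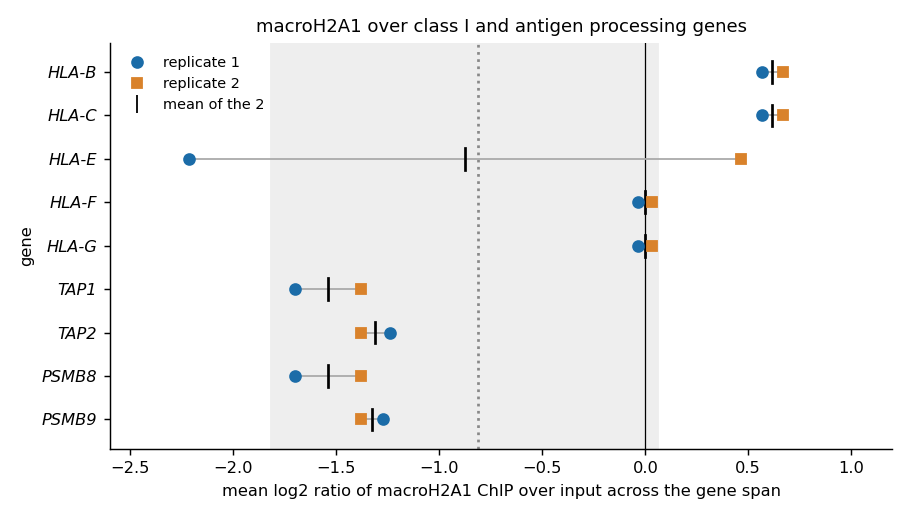
Mean log2 ratio of macroH2A1 ChIP over input across each gene (x axis) for the 9 genes (y axis), with replicate 1 as circles, replicate 2 as squares and their mean as a bar; the grey band spans the lower to the upper quartile of 19517 protein-coding genes and the dotted line is their median, each averaged over the replicates. HLA-B and HLA-C lie at 0.57 and 0.67, TAP1, TAP2, PSMB8 and PSMB9 at or below -1.24, and the 2 values of HLA-E are -2.21 and 0.46.

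The non-classical genes HLA-F and HLA-G, the latter known for its expression at the placenta, stood at the level of input. HLA-F (chr6:29690552-29706305) had -0.03 in replicate 1 and 0.03 in replicate 2, and HLA-G (chr6:29794744-29798902) had the same values, again from 1 shared segment per replicate. The mean was -0.0024 ± 0.05 (SD, n = 2). The 2 values lay on either side of 0 and 0.07 apart. Neither replicate called the segment enriched, with a −log10 p of 0.92 and 0.62. A value at input was still above 73.6% of measured genes, since the median gene stood at -0.88 and -0.75.

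The segment around HLA-F and HLA-G was 288.4 kb long in replicate 1 and 372 kb in replicate 2. Its lower ends coincided within 0.167 kb, where the log2 ratio stepped from -2.16 and -2.43 up to the level of input. At the upper side replicate 2 ran 83.4 kb farther. Over the extra stretch replicate 1 drew 9 short segments between -2.12 and 1.98, where replicate 2 has a single value. MOG, a protein of the myelin surface, and ZFP57, a zinc finger protein that keeps imprinted marks, lay wholly in the same segment in both replicates and so had the same values as the HLA genes. The nearest bases enriched in both replicates were 244.6 kb from HLA-G toward higher coordinates.

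HLA-E, the ligand of the NKG2A receptor of natural killer cells, was the gene on which the replicates disagreed. HLA-E (chr6:30457286-30461971) had a mean log2 ratio of -2.21 in replicate 1 and 0.46 in replicate 2. Their difference of 2.68 was exceeded by 44 of 19517 genes, or 0.225%, where the median difference between replicates was 0.23. The mean, -0.87 ± 1.89 (SD, n = 2), therefore describes neither replicate. In replicate 1 a segment of only 4.65 kb (chr6:30456849-30461501) at -2.41 covered 90.0% of the gene, starting 0.437 kb before its start site. The stretch before it stood at 0.33 and the one after it at -0.49, in which the last 10.0% of the gene lay. In replicate 2 the gene sat inside a segment of 55.4 kb (chr6:30447878-30503311) at 0.46, with a −log10 p of 5.49.

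Averaged over the whole of that 55.4-kb interval, replicate 1 gave 0.225. Over the wide interval both replicates were thus above 0, and the dip over the gene body was drawn in replicate 1 only. Replicate 1 was segmented more finely throughout, with 46952 segments against 25584. Segments under 5 kb with a log2 ratio below -2 numbered 266 in replicate 1 and 14 in replicate 2, and they held the start sites of 138 and 3 of 19819 genes. Whether replicate 2 has a dip that its segmentation did not draw was not tested. With 10 kb added on either side, HLA-E stood at -0.31 and 0.49. Beyond the macroH2A1 stretch the nearest genes were low in both replicates. GNL1, a GTP-binding protein gene 47.2 kb above HLA-E, stood at -1.81 and -2.22, and the read-through gene TRIM39-RPP21, 142.7 kb below it, at -2.27 and -1.86.

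**Figure D2:**
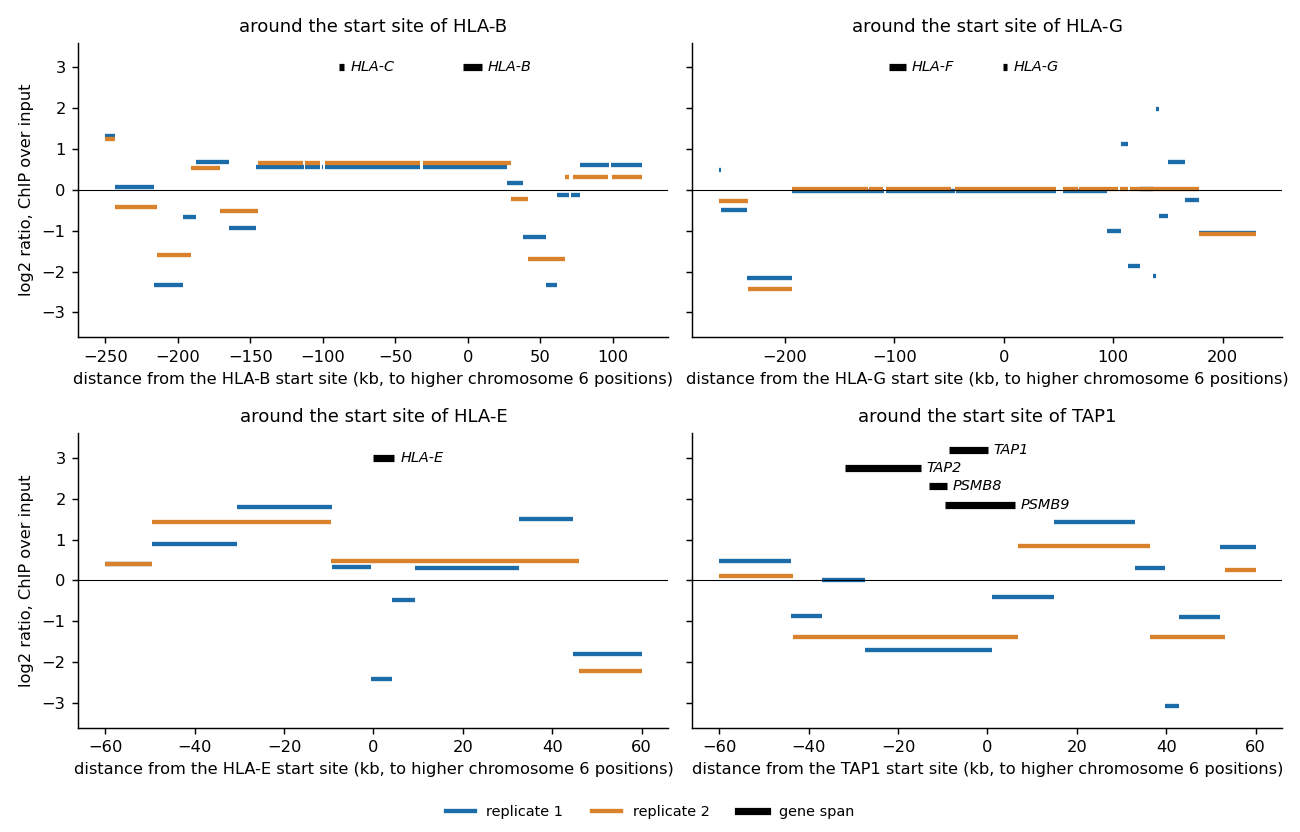
Log2 ratio of ChIP over input (y axis) of the segment blocks around 4 start sites against the distance from that site in kb toward higher chromosome 6 positions (x axis), with replicate 1 in blue, replicate 2 in orange and gene spans in black. HLA-C and HLA-B share one raised plateau at 0.57 and 0.67, HLA-F and HLA-G a plateau at -0.03 and 0.03, replicate 1 alone dips to -2.41 over HLA-E, and the TAP and PSMB genes lie in a trough.

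The 4 genes that make and transport the peptides lay together in a stretch of low macroH2A1, between HLA class II genes. TAP1 (chr6:32812986-32821593) had -1.70 in replicate 1 and -1.38 in replicate 2, a mean of -1.54 ± 0.23 (SD, n = 2) and a ratio of 0.343. PSMB8 (chr6:32808494-32812456), which begins 0.53 kb from the end of TAP1, had the same values from the same segments. TAP2 (chr6:32789610-32806516) had -1.24 and -1.38, or -1.31 ± 0.10, and PSMB9 (chr6:32811913-32827628) had -1.28 and -1.38, or -1.33 ± 0.08. All 4 were below 0 in both replicates, and none had a base in an enriched segment of either. They were not extreme, lying above 34.0% to 39.7% of measured genes.

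Replicate 2 drew 1 trough of 50.4 kb (chr6:32777948-32828392) over all 4 genes, so they share 1 value there. Replicate 1 drew a core of 28.3 kb (chr6:32794191-32822485) that held TAP1 and PSMB8 whole, 72.9% of TAP2 and 67.3% of PSMB9. The remainder of TAP2, its 3′ end, stood at 0.01 in replicate 1, and the remainder of PSMB9, also its 3′ end, at -0.40. The shared upstream region of TAP1 and PSMB9 printed above lay inside the trough in both replicates. In replicate 1 the edge of the core followed 0.517 kb after the PSMB9 start site, and in replicate 2 the edge of the trough followed 6.42 kb after it. Read over the canonical transcript, which is shorter than the annotated span (5.66 against 15.7 kb), PSMB9 had -0.51 and -1.38. In the 5 kb centred on the start site TAP2 and PSMB8 had -1.70 and -1.38, TAP1 had -1.31 and -1.38, and PSMB9 had -1.18 and -1.38.

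MacroH2A1 rose steeply beyond PSMB9. Bases enriched in both replicates began 8.76 kb past the end of PSMB9 and ran for 18.1 kb at 1.42 in replicate 1 and 0.84 in replicate 2. On the other side no base enriched in both replicates lay within 577.5 kb of TAP2. The rise was not continuous: before HLA-DMB the log2 ratio was below 0 again, at -3.08 and then -0.89 in replicate 1 and at -1.38 in replicate 2. The nearest class II genes on the 2 sides stood on different sides of 0. HLA-DOB, a chain of the HLA-DO regulator of peptide loading, 1.37 kb from TAP2, stood at -0.45 and -1.38, whereas HLA-DMB, a chain of the HLA-DM peptide exchange factor, 74.8 kb from PSMB9, stood at 0.81 and 1.34. HLA-DMA, the partner chain of HLA-DMB on the same side, stood at -0.67 and -0.60.

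In order of the mean, HLA-B and HLA-C came first, then HLA-F and HLA-G, HLA-E, TAP2, PSMB9, TAP1 and PSMB8. The step from HLA-C to HLA-F was 0.60 in replicate 1 and 0.64 in replicate 2, and the replicate values of the 2 genes did not overlap. The place of HLA-E in the order depends on the replicate: it lay 2.18 below HLA-G in replicate 1 and 0.43 above it in replicate 2. The replicate values of TAP2, PSMB9, TAP1 and PSMB8 overlapped, since all 4 share 1 value in replicate 2. In replicate 1 TAP2 at -1.24 and PSMB9 at -1.28 lay above TAP1 and PSMB8 at -1.70. In replicate 2 all 5 HLA genes, at 0.03 to 0.67, lay above all 4 TAP and PSMB genes at -1.38. In replicate 1 the HLA genes ranged from -2.21 to 0.57 and the others from -1.70 to -1.24, with HLA-E alone below them. Because of the shared segments these 9 genes amount to 4 separate places in the genome: HLA-F with HLA-G, HLA-E, HLA-C with HLA-B, and TAP2 to PSMB9.

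As a list the 9 genes did not stand out from protein-coding genes in the share above input. HLA-B and HLA-C, 2 of 9, were above 0 in both replicates, against 22.8% of all measured genes; in replicate 2 alone it was 5 of 9. The 4 TAP and PSMB genes were below 0 in both, where 69.7% of measured genes were, and 3 of 9 (HLA-E, HLA-F and HLA-G) had opposite signs, where 7.50% did. Enriched segments of both replicates covered HLA-B and HLA-C to 100%, and 19.2% of measured genes were covered to at least 50%. The other 7 were covered to 0, as were 69.5% of measured genes. The median of the 9 was -1.24 in replicate 1 and 0.03 in replicate 2, against -0.88 and -0.75 over all measured genes. The 117 other genes between HLA-F and PSMB9, a region of 3137 kb, had medians of -1.43 in both replicates, and 26 of them were above 0 in both. Enriched segments of both replicates covered 33.2% of this region, and no share over the whole genome is given to set beside it. Of the 117 other genes 14.5% were covered to at least 50%, against the 19.2% of all measured genes.

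**Figure D3:**
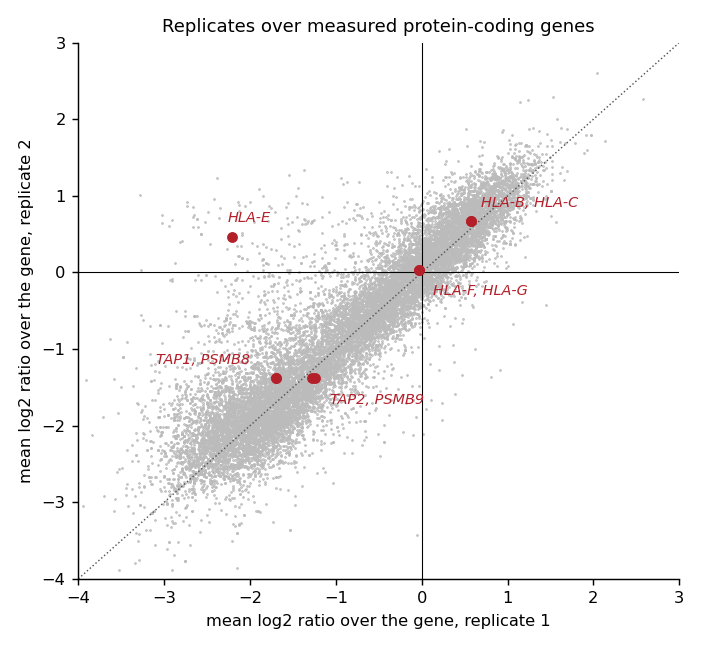
Mean log2 ratio over the gene in replicate 1 (x axis) and replicate 2 (y axis) for 19517 measured protein-coding genes in grey and the 9 class I pathway genes in red; the dotted line marks equal values. HLA-E lies far from the line at -2.21 and 0.46, and the other 8 genes lie close to it.

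Other genes of the pathway, 18 in a list that holds the light chain, the loading complex, trimming enzymes, proteasome subunits and regulators, were low. The list also holds MICA, the NKG2D ligand gene named above, and MICB. Of the 18 genes, 17 were below 0 in both replicates (69.7% of all measured genes were), none was above 0 in both, and 1, MICB, had opposite signs. The median of the list was -1.91 in replicate 1 and -1.53 in replicate 2. The lowest were PSMB10, the third immunoproteasome subunit, at -2.97 and -2.40, and CALR, which encodes the chaperone calreticulin, at -2.58 and -2.71. The highest were ERAP2, an enzyme that trims peptides, at -0.14 and -0.52, and MICB, a relative of MICA, at -0.99 and 0.31. B2M, the light chain shared by all class I molecules, stood at -2.18 and -0.23, below 0 in both but with a wide spread. TAPBP, which encodes tapasin, the bridge between TAP and class I, stood at -2.32 and -2.40.

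The 3 immune and the 3 standard catalytic proteasome subunits were all below input in both replicates. PSMB8 had -1.70 and -1.38, and PSMB5, which it replaces, had -1.55 and -0.46 (SD 0.77, n = 2). PSMB9 had -1.28 and -1.38, and PSMB6, which it replaces, had -2.32 and -1.32 (SD 0.71, n = 2). In these 2 pairs the difference of the means (0.54 and 0.49) was smaller than the SD of the standard subunit. It was larger than the SD of the immune subunit (0.23 and 0.08). In the third pair PSMB10 had -2.97 and -2.40, below the -1.88 and -2.34 of PSMB7, which it replaces. Their means differed by 0.58, more than the SD of either (0.41 and 0.33, n = 2). That gap came almost wholly from replicate 1, since replicate 2 had -2.40 and -2.34. NLRC5, the transactivator of class I genes, stood at -1.39 and -1.44, and IRF1, an interferon regulatory factor, at -0.63 and -0.24, with 15.5% of its annotated span in enriched segments of both replicates.

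The 13 HLA class II genes, which present peptides from outside the cell and flank the TAP and PSMB genes, were spread around input. Of these, 4 were above 0 in both replicates, 7 below and 2 of opposite signs (22.8%, 69.7% and 7.50% of all measured genes were), with medians of -0.11 and -0.35. Several, among them most of the genes above 0, had values identical to those of others on the list in both replicates. The 13 genes are thus not 13 separate measurements.

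**Figure D4:**
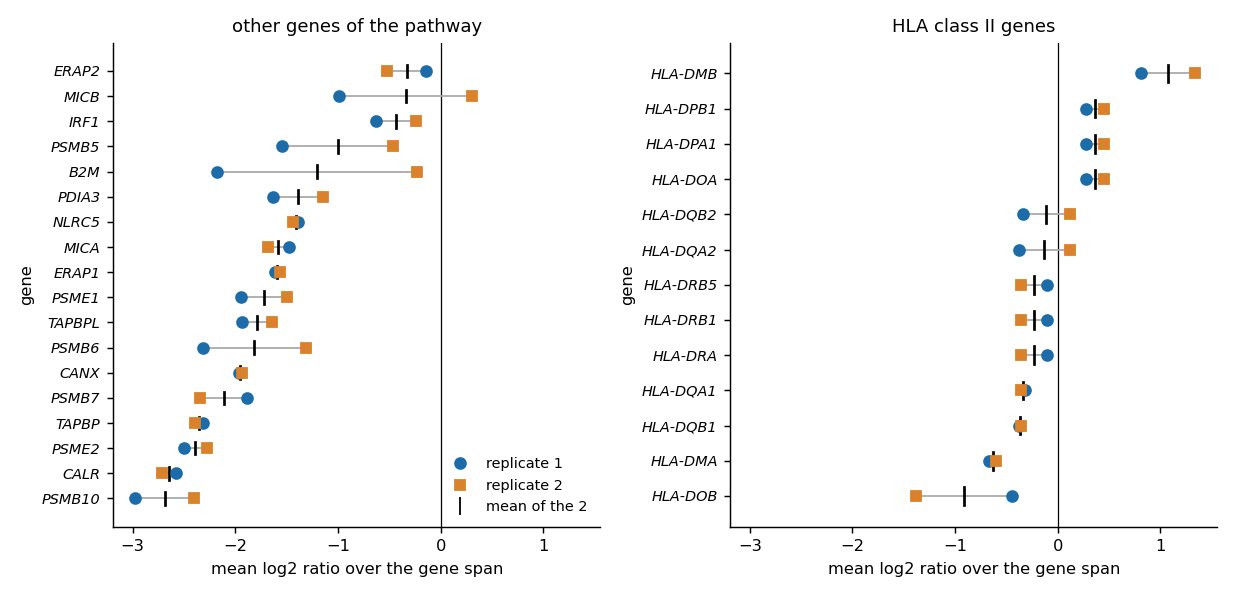
Mean log2 ratio over the gene span (x axis) for 18 other genes listed with the class I pathway, MICA and MICB among them (left), and 13 HLA class II genes (right), sorted by mean, with replicate 1 as circles, replicate 2 as squares and the mean as a bar. No pathway gene is above 0 in both replicates, and HLA-DMB is the highest class II gene at 0.81 and 1.34.

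Class I genes are related copies, so a short read can match more than one of them. Over their canonical transcripts HLA-B and HLA-C were identical at 89.7% of aligned positions, HLA-F and HLA-G at 84.1%, and HLA-E and HLA-B at 72.5%. The sources used here do not say how reads with several placements were treated, and its effect on these values was not tested. All 9 genes lay in blocks over 100% of their spans in both replicates, which does not show how such reads were placed. The long segments that hold HLA-B, HLA-C, HLA-F and HLA-G extend far past the genes, and nothing inside them is resolved, whereas the short segment over HLA-E in replicate 1 is about as long as the gene.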

How the data were processed

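The deposited files hold, per ChIP replicate, segments made of blocks. The authors give each segment a log ratio, ChIP against input, taken here as log2 from its values, and a deposited −log10 p-value. CASAVA 1.7 and hg19 are named in the submitters' processing notes. The aligner, duplicate handling, segmentation program and scaling are not stated in those notes or in the file headers. Each replicate has its own file, and inputs enter only through the ratio.

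From these values the mean log2 ratio of each gene was computed over its bases in blocks, with genes from GENCODE release 44 on GRCh37, the build of the files, on autosomes and chromosome X. A gene was measured when at least 50% of its span was assayed in both replicates, and a segment was enriched at a log2 ratio above 0 and a −log10 p of at least 2. All genes, other pathway genes and class II genes are given by counts and medians; named were every listed gene of the pathway described, the 2 highest and 2 lowest of the wider list, genes in the same segment and nearest neighbours. B2M, TAPBP, NLRC5, IRF1, PSMB5, PSMB6, PSMB7 and HLA-DMA were named beyond this rule, for their roles and after their values were seen. The genes and lists were chosen with earlier results of these data known. Replicate error is the SD of 2 samples, and the deposited values carry no depth, so no counting interval was made. The interval computation was tested on 1000 simulated windows with 0 mismatches. Promoter sequences are from RefSeq (GRCh38.p14). Python 3.11.15, NumPy 2.4.6 and Biopython 1.88 were used.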

Additional observations from a re-analysis of the deposited data

How the results depend on the processing

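No paired analysis was possible because there is 1 group of ChIP samples and the results come from no test. The count of genes covered to at least 50% was 2 under a window of 2.5 kb either side of the start site, 10 kb of flank, whole segments, a −log10 p of at least 5 or with no limit, a log2 ratio above 0.5 and the canonical transcript span (the last chosen after seeing the data). With single replicates it ran from 2 to 3. The count above 0 in both replicates ran from 2 to 5 with single replicates, 5 being replicate 2 alone, and was 2 in the other settings tried for it. The median over the 9 genes, -0.87, is the value of HLA-E and rests on its disagreeing replicates. It ran from -1.24 to 0.0302 with single replicates, was -0.41 in the start site window and -0.0024 with flanks, and lay at -0.06 relative to the median gene of each replicate. Of 45 values of single genes under the settings that keep both replicates, 38 moved by no more than 1 SD of the replicates and 7, all of TAP1, TAP2 or PSMB9, moved by more and kept their sign. The count of 38 is not a measure of stability. HLA-B, HLA-C, HLA-F and HLA-G had the same value under each of these settings, because their long segments extend past every span read. HLA-E stayed within 1 SD only because its SD was 1.89. HLA-E turned to 0.09 with flanks and to 0.46 in replicate 2 alone, where HLA-F and HLA-G stood at 0.0302. Read depth is unknown, so no precision can be given for a single segment.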
